A study of Rattus norvegicus with 9 samples.

Results

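Synaptic vesicle and transmitter release genes were examined in differentiating neural stem cells (NSCs). The 36 genes were listed by symbol for these roles, with earlier results of these data known, and all 36 were found among the 23953 genes of the count table. They encode the proteins of the vesicle membrane, the synaptotagmins, the fusion machinery, the active zone, the enzymes and transporters that make and load transmitter, and proteins that retrieve vesicle membrane.

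A neuron stores transmitter in synaptic vesicles, which dock at a protein scaffold called the active zone and are primed there for release. Calcium that enters with an action potential binds synaptotagmin, and the SNARE proteins on the vesicle and on the plasma membrane then pull both membranes together. In a culture of differentiating NSCs, transcripts of these genes come mainly with the neurons that form, although several of them are also found in glia and in progenitors.

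The NSCs were labelled as cells of rat spinal cords, and the methods of the study describe isolation from neonatal rats. Con cells were kept in differentiation medium alone. Exo cells were given in addition exosomes of bone marrow mesenchymal stem cells, which per the methods of the study carried an empty lentiviral vector. The pLV-Exo-Wnt5a cells were given exosomes of such stem cells made to overexpress Wnt5a by a lentiviral vector. Each group had 3 RNA-seq libraries, 9 in all, and all share 1 batch label. The labels do not say whether the libraries of a group came from separate cultures or animals, so p-values measure only the spread between these samples, which may be technical.

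Total counts lay between 32765138 and 40427647 per library, and levels are given as CPM, counts scaled to a common library total. A count of 0 would allow up to 3 counts, or 0.0742 to 0.0916 CPM, by counting error only. The smallest count of any of the 36 genes was 47, for Slc17a6 in Con replicate 1. The label of spinal cord was checked against position genes. Of 10 Hox genes listed for the spinal cord, 4 were in the table, and none exceeded 0.0517 CPM in any library, so these defining markers of the label were at or near 0. Gene symbols and NCBI gene numbers of the table are those of mouse, while the cells were labelled as rat.

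Con replicate 1 stood apart from the other libraries. Of the 36 genes, 15 had their lowest level of all 9 libraries there, against 29.5% of all genes. None had its highest level there, against 26% of all genes. Within the Con group, 10 of the 36 genes were below 0.8 times the mean of replicates 2 and 3 in replicate 1, against 29.4% of all genes. Replicate 1 was below both others in 18 members and above both in 15, against 42.5% and 41.7% of all genes. The lowest ratios were 0.419 for Slc17a6, 0.433 for Syt4 and 0.536 for Gad2. Several abundant members went the other way, with ratios of 1.17 for Vamp2 and 1.13 for Syp. The main differences from Con that rest on this library are therefore given with and without it.

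Rat promoter sequences are shown for 4 of the members with differences from Con, an active zone pair and the pair of enzymes that make GABA. They were taken from RefSeq (GRCr8), run 5′ to 3′ from 250 bases before to 50 bases after the transcript start that the promoter table uses, and are written in lower case with matches on either strand to any of 3 motifs in capitals. The motif of the GC box, a site for Sp1 and related factors, was taken as GGGCGG. That of the CCAAT box, a site for NF-Y, was the 5 letters of its name. That of the TATA box, where TBP binds, was searched as TATAAA. The Pclo window lies at chr4:21005062-21005361 on the minus strand, the Rims1 window at chr9:32692723-32693022 on the minus strand, the Gad1 window at chr3:75777202-75777501 on the plus strand, and the Gad2 window at chr17:89671468-89671767 on the plus strand. The start used lay 60 bases inside the outer boundary of the gene record for Pclo, 226 for Rims1, 192 for Gad1 and 0 for Gad2.
Pclo: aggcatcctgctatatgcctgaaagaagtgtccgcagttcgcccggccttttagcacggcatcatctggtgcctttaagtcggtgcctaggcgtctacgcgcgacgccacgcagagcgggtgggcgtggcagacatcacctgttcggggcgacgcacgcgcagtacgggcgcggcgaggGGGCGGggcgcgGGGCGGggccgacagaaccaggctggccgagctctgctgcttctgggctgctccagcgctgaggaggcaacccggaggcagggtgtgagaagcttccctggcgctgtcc
Rims1: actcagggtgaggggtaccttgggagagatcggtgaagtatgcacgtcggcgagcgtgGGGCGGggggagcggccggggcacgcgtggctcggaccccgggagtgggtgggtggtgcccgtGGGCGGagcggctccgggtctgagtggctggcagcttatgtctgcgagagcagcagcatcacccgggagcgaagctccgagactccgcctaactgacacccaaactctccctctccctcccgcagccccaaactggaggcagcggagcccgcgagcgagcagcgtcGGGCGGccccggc
Gad1: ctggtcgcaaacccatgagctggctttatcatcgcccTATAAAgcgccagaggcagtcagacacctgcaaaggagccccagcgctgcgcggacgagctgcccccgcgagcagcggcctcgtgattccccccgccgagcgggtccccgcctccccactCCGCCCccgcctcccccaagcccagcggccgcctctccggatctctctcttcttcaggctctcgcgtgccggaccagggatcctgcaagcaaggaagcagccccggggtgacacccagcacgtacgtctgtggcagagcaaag
Gad2: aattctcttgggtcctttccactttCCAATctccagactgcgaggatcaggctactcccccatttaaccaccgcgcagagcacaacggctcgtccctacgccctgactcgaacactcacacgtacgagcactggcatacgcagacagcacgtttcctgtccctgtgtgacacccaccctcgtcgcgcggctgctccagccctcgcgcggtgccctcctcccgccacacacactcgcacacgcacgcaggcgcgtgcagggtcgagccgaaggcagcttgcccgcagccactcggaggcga

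The windows of Pclo and Rims1 held 2 and 3 GC boxes and no TATA box. Gad1 and Gad2, which encode enzymes with the same reaction, differed in these matches. Gad1 held 1 GC box and 1 TATA box, while Gad2 held neither and had 1 CCAAT box. The match to TATAAA in Gad1 began at -213 relative to the start used. Of the Rims1 GC boxes, the last began at 37, after that start. Among the 31 members matched in the promoter table, 22 (71.0%) held a GC box, against 33.1% of all 33469 windows of that length, which include noncoding genes. The TATA box was found in 1 (3.23%) against 14.2%, and the CCAAT box in 11 (35.5%) against 37.5%. The cAMP response element (TGACGTCA) was found in 2, Syn1 and Vamp1, or 6.45% against 1.83%. Of a pair of E-boxes, bound by proneural factors, CAGCTG was found in 29.0% against 15.1%. The other, CAGATG, was found in 9.68% against 16.6%. The left part of the neuronal silencer element RE1 (TTCAGCACC) was found in 3.23% against 0.356%. Its right part (GGACAGC) was found in 19.4% against 6.59%. Median GC content was 64.3% in the members and 51.7% in all windows. The GC box consists of G and C alone, so its share and the GC content are not separate observations. Syt5, Snap25, Syn3, Doc2b and Rims2 had no entry. These matches describe letters in the windows, and no binding was measured.

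All 36 genes passed the filter on low counts in each of the 3 comparisons, which were Exo with Con, then the 2 exosome groups with each other, then pLV-Exo-Wnt5a with Con. In edgeR's quasi-likelihood test no member was a differentially expressed gene (DEG), defined by Q under 0.05 together with a fold of more than 2 or less than 0.5 (Q is the p adjusted over all genes by the Benjamini-Hochberg method). In that order of comparisons, 0.00664% of 15070, 0.159% of 15132 and 0.0663% of 15089 genes met that rule. At any fold, 0.00664%, 0.436% and 0.0862% of genes had Q under 0.05 in edgeR, and again no member did. DESeq2 called no member with the fold limit either, against 0.186%, 0.489% and 0.179% of genes. Without it, DESeq2 gave Q under 0.05 for 2 members (Pclo and Snap25), 1 member (Pclo) and 0 members, against 1.4%, 2.72% and 0.477% of genes. At an unadjusted p under 0.05 in edgeR, a weaker criterion, 8, 7 and 4 members passed. The following values therefore describe differences that did not pass adjustment over all genes, unless DESeq2 or another filter is named.

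Against Con, the Exo group had 8 members past an unadjusted p under 0.05, all higher. They were Pclo, Rims1 and Rab3c of the active zone and the Rab3 system, the synaptotagmins Syt1 and Syt4, the SNARE protein Snap25, and the GABA-synthesizing enzymes Gad1 and Gad2. The share was 8 of 36 members, against 14.9% of all genes tested, of which 8.92% were higher and 6.01% lower. With an absolute log2FC above 0.58 as well, 3 members remained, Snap25, Syt4 and Gad2, against 4.47% of all genes (3.56% higher, 0.909% lower).

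With pLV-Exo-Wnt5a set against Exo, 6 members were lower at an unadjusted p under 0.05 and 1 was higher, against 12% of all genes (6.91% lower, 5.07% higher). The lower members were Pclo, Syt4, Rims1, Rims2, Rab3c and Syt1, and the higher one was Sv2c, a vesicle glycoprotein. None reached the log2FC limit, which 3.49% of all genes did (1.51% higher, 1.98% lower). With pLV-Exo-Wnt5a set against Con, 3 members were higher (Snap25, Gad1, Sv2c) and 1 was lower (Sypl2), against 8.35% of all genes (4.2% higher, 4.15% lower). Sypl2 was the 1 member past the log2FC limit there, against 2.16% of all genes (1.46% higher, 0.696% lower).

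The comparisons of Exo with Con and of pLV-Exo-Wnt5a with Exo contain the same 3 Exo libraries and are not independent of each other. Syt1, Syt4, Rab3c, Rims1 and Pclo passed the unadjusted p in both. They were higher in Exo than in Con and lower in pLV-Exo-Wnt5a than in Exo. The third comparison, of pLV-Exo-Wnt5a with Con, does not contain the Exo libraries. It shares all its own libraries with those comparisons, so it is no separate check. There the log2FC was 0.25 for Syt1, 0.33 for Syt4, 0.07 for Rab3c, 0.23 for Rims1 and 0.09 for Pclo. None of the 5 passed the unadjusted p in the main edgeR fit with all 6 libraries. On the same 6 libraries, Syt1 and Syt4 did pass it in other edgeR fits. These were the fit without the filter on low counts and that with the replicate number as a block. Without Con replicate 1 the log2FC of the 5 were 0.05, 0.03, 0.02, 0.04 and 0.02. Without Con replicate 3, Syt1 (0.40) and Syt4 (0.65) also passed the unadjusted p.

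In the same order of comparisons, the median log2FC of the 36 members was 0.07, -0.04 and 0.08, and over all genes tested it was 0.002, 0.005 and 0.004. The -0.04 turned to 0.04 without pLV-Exo-Wnt5a replicate 3, and it was -0.12 when replicate 2 of that group was left out and -0.11 when Exo replicate 1 was. A log2FC above 0 was found in 27, 11 and 28 of the 36 members, against 50.3%, 51.4% and 50.8% of all genes. The 3 Exo libraries did not overlap with the 3 Con libraries in 10 members, 9 higher and 1 lower, against 10.9% and 12.4% of all genes. The pLV-Exo-Wnt5a libraries lay above all Exo libraries in 2 members and below them in 8 (7.5% and 8.9% of all genes). They lay above all Con libraries in 2 members and below them in 3 (7.67% and 9.41%). Most members thus showed small differences, and those past p were a minority spread over several roles.

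**Figure D1:**
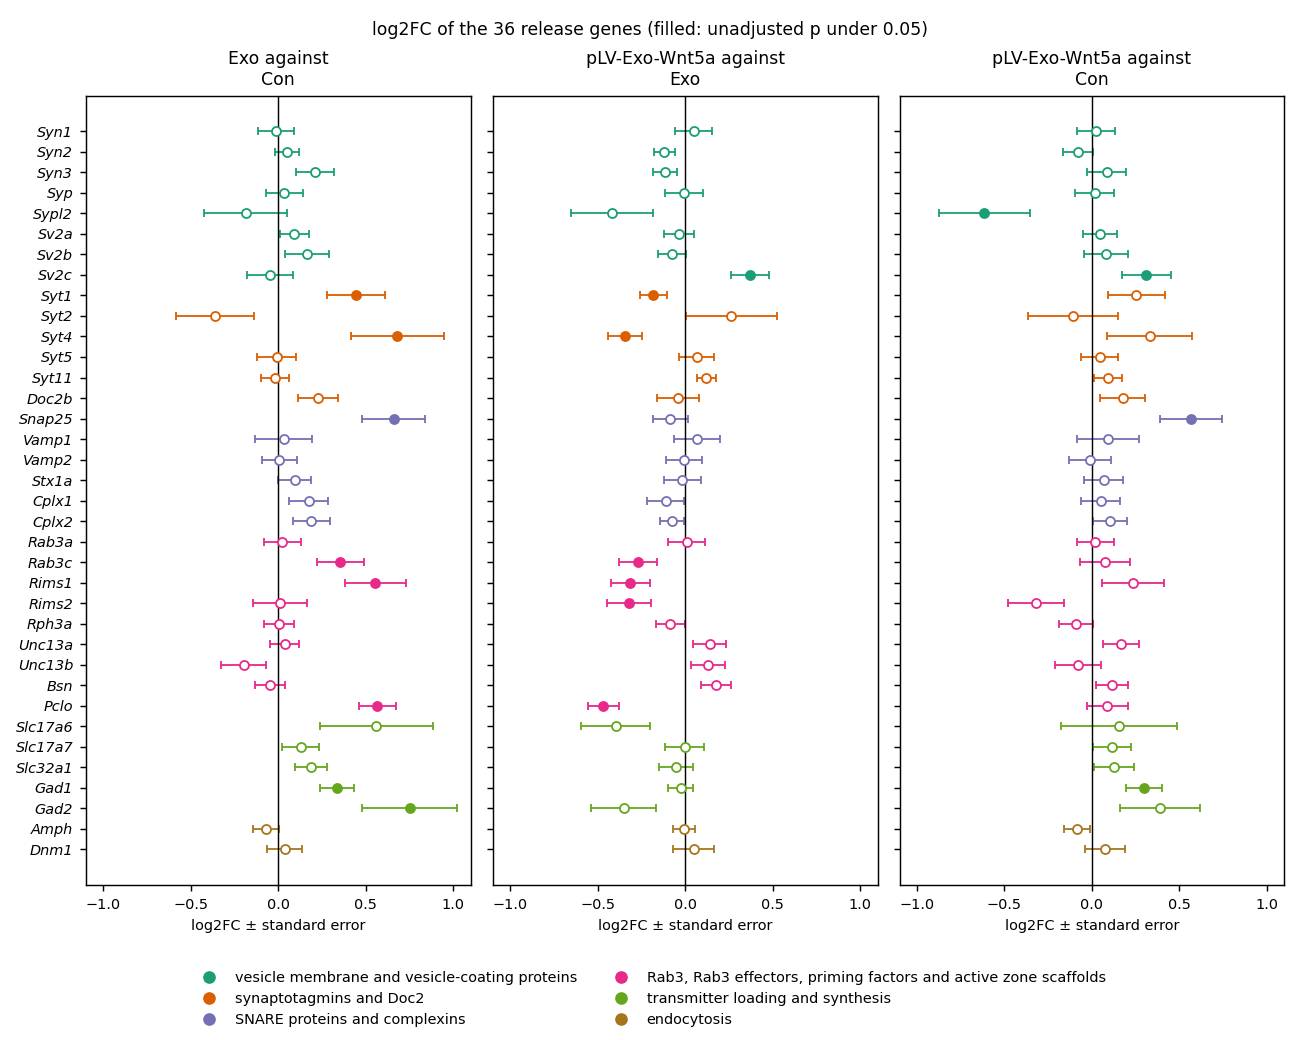
log2FC (x axis, ± standard error) of the 36 genes (y axis, coloured by role) in the 3 comparisons, with filled points where the unadjusted p was under 0.05. In Exo against Con the 8 filled points lie to the right of 0, from 0.34 (Gad1) to 0.75 (Gad2), while in pLV-Exo-Wnt5a against Exo 6 of 7 lie to the left.

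Pclo encodes piccolo, a very large scaffold protein of the active zone (NCBI gene number 26875). Its level was 25.1, 30.1 and 29.2 CPM in Con replicates 1 to 3, 45.9, 40.8 and 39.0 CPM in the Exo libraries, and 27.3, 31.1 and 31.6 CPM in the pLV-Exo-Wnt5a libraries. All 3 Exo libraries lay above the other 6, and the Con and pLV-Exo-Wnt5a ranges overlapped. The means were 28.1 ± 2.66, 41.9 ± 3.58 and 30.0 ± 2.37 CPM (SD, n = 3 each).

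The log2FC of Pclo for Exo against Con was 0.57 (standard error 0.11, Q = 0.265 in edgeR). Against Exo, the pLV-Exo-Wnt5a group had a log2FC of -0.47 (standard error 0.09, Q = 0.0563). Pclo had the smallest p of the 36 members in both comparisons. In DESeq2 it passed adjustment in both, with Q = 0.00297 and Q = 0.00054, below the fold limit, where 1.4% and 2.72% of all genes had Q under 0.05 at any fold. Without the filter on low counts, edgeR gave Q = 0.0107 and Q = 0.00425 for these comparisons, where 1.93% and 1.71% of all genes had Q under 0.05. Its unadjusted p stayed under 0.05 with each of the 6 libraries left out in either comparison, and its log2FC for Exo against Con was 0.49 without Con replicate 1.

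Bsn encodes bassoon, the related scaffold beside piccolo (12217), and did not follow it. It was measured at 265, 264 and 250 CPM in Con, 252, 227 and 279 CPM in Exo, and 285, 310 and 254 CPM in pLV-Exo-Wnt5a, with overlap between all groups. Its log2FC for Exo against Con was -0.05, with a 95% interval from -0.22 to 0.12. The 95% intervals given here were computed from the standard error by a normal approximation, which makes them too narrow for so few libraries. The interval of Bsn lies below the one of Pclo, from 0.36 to 0.78. The difference between these 2 genes was not itself tested.

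Rims1 encodes a RIM protein that links Rab3 on the vesicle to calcium channels and priming factors (116837). Its levels were 14.7, 24.0 and 23.3 CPM in Con, 27.1, 31.2 and 33.1 CPM in Exo, and 27.9, 23.3 and 21.8 CPM in pLV-Exo-Wnt5a. Each Exo library was above each Con library, and 1 pLV-Exo-Wnt5a library reached into the Exo range. For Exo against Con, the log2FC was 0.55 (standard error 0.18, Q = 0.265), and 0.36 without the low Con replicate 1, still past the unadjusted p. For pLV-Exo-Wnt5a against Exo it was -0.31 (standard error 0.11, Q = 0.302), which stayed past p in 2 of 6 fits with a library left out and not in a fit on all 9 libraries (Q = 0.736 in edgeR).

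Rims2, the paralog of Rims1, had its lower level in another place. It stood at 9.21 ± 1.36 CPM in Con and 9.32 ± 0.885 CPM in Exo, and at 7.57, 7.25 and 7.36 CPM in the 3 pLV-Exo-Wnt5a libraries. All 3 were below every other library. The log2FC of pLV-Exo-Wnt5a was -0.32 against Exo (Q = 0.345, past p in 3 of 6 fits with a library left out) and also -0.32 against Con (Q = 0.63).

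Rab3c, a small GTPase of the vesicle surface, was measured at 9.44, 10.3 and 11.4 CPM in Con, 12.6, 14.4 and 13.1 CPM in Exo and 10.5, 11.1 and 11.3 CPM in pLV-Exo-Wnt5a. The Exo libraries lay above the other 6. The log2FC was 0.35 for Exo against Con (Q = 0.294) and -0.27 for pLV-Exo-Wnt5a against Exo (Q = 0.366, past p in 2 of 6 fits with a library left out). Rab3a, the main neuronal isoform, was at 248, 224 and 220 CPM in Con, 201, 251 and 254 CPM in Exo and 238, 264 and 203 CPM in pLV-Exo-Wnt5a. Those ranges overlapped throughout, with log2FC between 0.01 and 0.02 in the 3 comparisons.

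The other members with a role in docking and priming did not pass the unadjusted p. Unc13a and Unc13b encode Munc13 priming factors, and Rph3a encodes rabphilin, a Rab3 effector. Their log2FC lay between -0.20 (Unc13b) and 0.04 (Unc13a) for Exo against Con. Of the 9 genes with Rab3, priming or active zone roles, 3 were higher in Exo than in Con and 4 were lower in pLV-Exo-Wnt5a than in Exo at the unadjusted p, where 8.92% and 6.91% of all genes were.

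**Figure D2:**
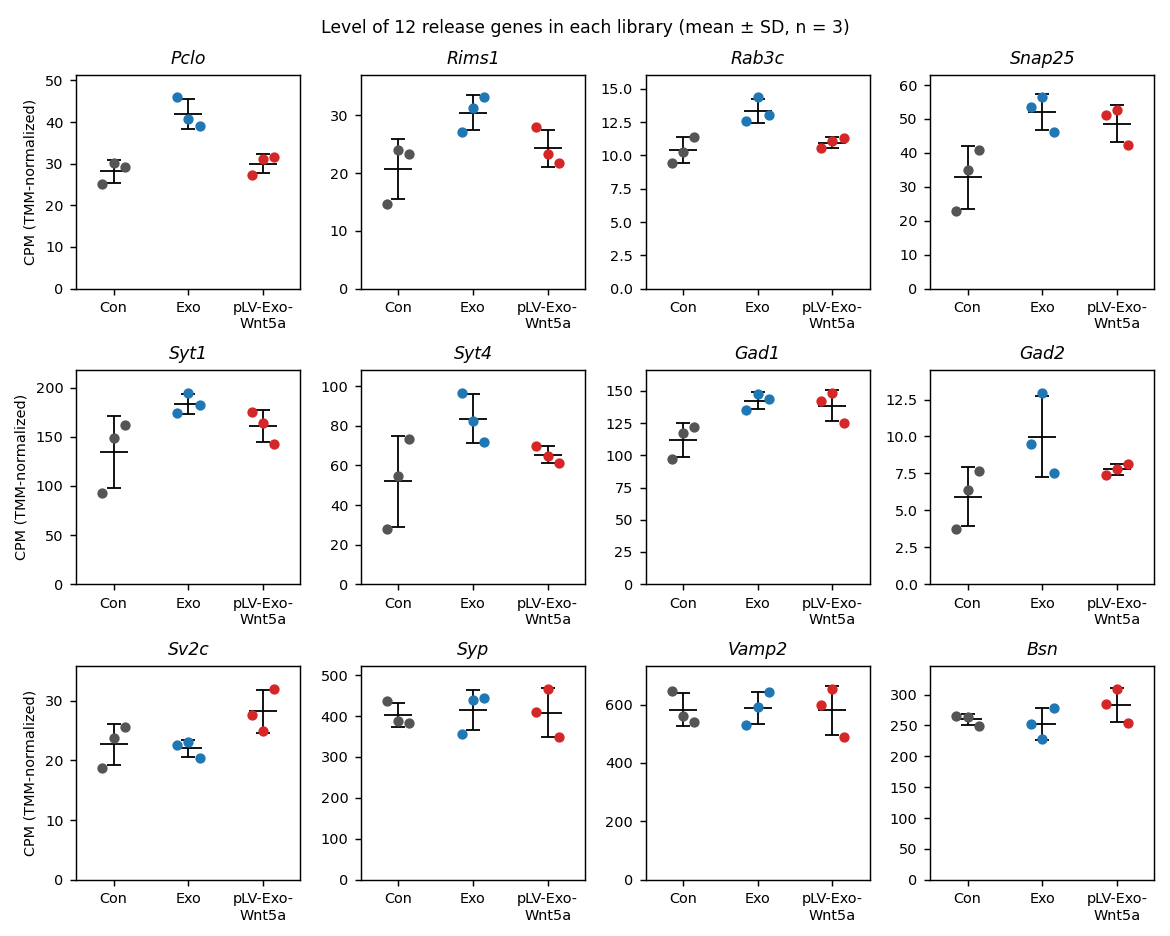
TMM-normalized CPM (y axis, from 0) of 12 members by group, with 1 point per library and bars for the mean ± SD (n = 3). The Exo points of Pclo and Rab3c lie above all others, Con replicate 1 (left point of the Con group) is low in Rims1, Snap25, Syt1, Syt4 and Gad2, and Syp, Vamp2 and Bsn overlap between groups.

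Snap25 encodes the SNARE protein of the presynaptic plasma membrane that is cut by several botulinum toxins (20614). Its levels were 22.7, 34.8 and 40.9 CPM in Con, 53.6, 56.3 and 46.1 CPM in Exo, and 51.0, 52.5 and 42.4 CPM in pLV-Exo-Wnt5a. Both groups that received exosomes lay above Con in every library. For Exo against Con, the log2FC was 0.66 (standard error 0.18, Q = 0.265 in edgeR, and Q = 0.0316 in DESeq2). For pLV-Exo-Wnt5a against Con it was 0.57 (standard error 0.18, Q = 0.475). The log2FC between the 2 exosome groups was -0.09, with a 95% interval from -0.28 to 0.11. Without Con replicate 1, the 2 differences from Con were 0.45 and 0.36, both past the unadjusted p.

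The partners of Snap25 in the SNARE complex had smaller log2FC for Exo against Con, and their difference from Snap25 was not itself tested. Vamp2 encodes the vesicle SNARE synaptobrevin and was the most abundant of this role group by counts, with 647, 561 and 540 CPM in Con, 532, 592 and 642 CPM in Exo and 599, 655 and 490 CPM in pLV-Exo-Wnt5a. Its groups overlapped, and its log2FC was 0.01 for Exo against Con (95% interval from -0.19 to 0.21). Stx1a, the plasma membrane syntaxin, averaged 137 ± 8.21, 147 ± 14.3 and 144 ± 21.4 CPM in the 3 groups (SD, n = 3 each). For Exo against Con its log2FC was 0.09 (95% interval from -0.09 to 0.28). Complexins clamp and activate the assembled complex. Cplx2 was at 171, 215 and 220 CPM in Con, 215, 251 and 229 CPM in Exo and 214, 225 and 216 CPM in pLV-Exo-Wnt5a, with Con replicate 1 below all others and a log2FC for Exo against Con of 0.19 (Q = 0.398 in edgeR), or 0.08 without that library. The log2FC of Cplx1 for Exo against Con was 0.17 (Q = 0.444 in edgeR), and Vamp1 stayed between 6.64 and 9.44 CPM in all libraries.

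Syt1 encodes the calcium sensor for fast synchronous release. Its levels were 92.7, 149 and 162 CPM in Con, 174, 195 and 182 CPM in Exo and 175, 164 and 143 CPM in pLV-Exo-Wnt5a. The Exo libraries lay above all Con libraries, and Con replicate 1 was far below the rest. The log2FC for Exo against Con was 0.44 (standard error 0.17, Q = 0.29) and 0.23 without Con replicate 1, still past the unadjusted p. For pLV-Exo-Wnt5a against Exo it was -0.18 (standard error 0.08, Q = 0.385), which stayed past p in 2 of 6 fits with a library left out and not in a fit on all 9 libraries (Q = 0.878 in edgeR).

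Syt4 encodes a synaptotagmin found on dense-core and postsynaptic vesicles and also induced by activity. It was measured at 27.8, 54.9 and 73.4 CPM in Con, 96.6, 82.5 and 71.8 CPM in Exo and 69.9, 64.8 and 61.4 CPM in pLV-Exo-Wnt5a. Con replicate 3 overlapped with the Exo range, and all pLV-Exo-Wnt5a libraries were below all Exo libraries. For Exo against Con the log2FC was 0.68 (standard error 0.27, Q = 0.298), no longer past the unadjusted p in DESeq2 (Q = 0.382), and 0.38 without Con replicate 1. The log2FC of pLV-Exo-Wnt5a relative to Exo was -0.34 (standard error 0.10, Q = 0.176), which stayed past p with each library left out but not in a fit on all 9 libraries (Q = 0.832 in edgeR).

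Syt11 had the highest counts of all 36 members and varied least among the synaptotagmins. It does not bind calcium and is expressed in glia as well as in neurons. Its levels were 784, 872 and 895 CPM in Con, 827, 871 and 835 CPM in Exo and 892, 906 and 932 CPM in pLV-Exo-Wnt5a. The pLV-Exo-Wnt5a libraries lay just above all Exo libraries, with a log2FC of 0.12 (Q = 0.424). Syt2 was low, between 2.14 and 4.02 CPM in the 9 libraries, and was the 1 member lower in Exo than in Con without overlap (log2FC -0.36, Q = 0.428). Syt5 and Doc2b, other calcium-binding release proteins, did not pass the unadjusted p, with log2FC for Exo against Con of -0.01 and 0.23.

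Gad1 and Gad2 encode the 2 glutamate decarboxylases, which make GABA from glutamate. Gad1 (14415) was at 97.2, 117 and 122 CPM in Con, 135, 148 and 144 CPM in Exo and 142, 148 and 125 CPM in pLV-Exo-Wnt5a. Every library of both exosome groups was above every Con library. The log2FC was 0.34 for Exo against Con (standard error 0.09, Q = 0.265) and 0.30 for pLV-Exo-Wnt5a against Con (standard error 0.10, Q = 0.509). Without Con replicate 1 these were 0.24 and 0.21, both past the unadjusted p. The difference of pLV-Exo-Wnt5a from Con was past it in 4 of 6 fits with a library left out, and not without pLV-Exo-Wnt5a replicate 1 (0.28) or replicate 2 (0.25).

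Gad2 (14417) had far fewer counts, with 3.76, 6.39 and 7.64 CPM in Con, 9.51, 12.9 and 7.53 CPM in Exo and 7.37, 7.82 and 8.11 CPM in pLV-Exo-Wnt5a. Exo replicate 3 fell below Con replicate 3, so these groups overlapped. Its log2FC for Exo against Con was the largest of the 36, at 0.75 (standard error 0.27, Q = 0.283), and became 0.51 without Con replicate 1, still past the unadjusted p, and also 0.51 without Exo replicate 2, no longer past it.

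The transporters that fill vesicles gave smaller or less certain differences. Slc32a1, which loads GABA and glycine, was at 63.6, 64.1 and 58.8 CPM in Con, 66.2, 74.9 and 72.5 CPM in Exo and 67.8, 77.8 and 58.7 CPM in pLV-Exo-Wnt5a. The Exo libraries were all above Con, with a log2FC of 0.19 (Q = 0.35). Slc17a7, the glutamate transporter VGLUT1, was at 108, 99.0 and 101 CPM in Con, 96.9, 114 and 127 CPM in Exo and 111, 127 and 96.5 CPM in pLV-Exo-Wnt5a, and its groups overlapped. Slc17a6 (VGLUT2) was near the lower end of the members, between 1.22 and 3.64 CPM, and its log2FC of 0.56 for Exo against Con had a wide 95% interval, from -0.07 to 1.19. It was 0.25 without Con replicate 1 and 0.93, past the unadjusted p, without Con replicate 3. The transcripts of both the GABA and the glutamate system were thus present in all 9 libraries.

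The proteins of the vesicle membrane and its coat are often used to stain synapses. Syp encodes synaptophysin, and its levels were 437, 388 and 382 CPM in Con, 357, 440 and 444 CPM in Exo and 410, 467 and 348 CPM in pLV-Exo-Wnt5a. Syn1 encodes synapsin, which tethers vesicles to each other and to actin, and had 326, 288 and 289 CPM in Con, 262, 301 and 336 CPM in Exo and 319, 342 and 261 CPM in pLV-Exo-Wnt5a. Both genes overlapped between all groups. The log2FC for Exo against Con was 0.03 for Syp (95% interval from -0.17 to 0.24) and -0.01 for Syn1 (from -0.22 to 0.19), so a change of the size seen for Pclo lay outside both intervals.

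Of these 8 vesicle membrane and coat genes, none passed the unadjusted p for Exo against Con. Sv2c, a member of the SV2 family of glycoproteins, was at 18.8, 23.7 and 25.6 CPM in Con, 22.7, 23.0 and 20.4 CPM in Exo and 27.6, 25.0 and 32.1 CPM in pLV-Exo-Wnt5a. All pLV-Exo-Wnt5a libraries lay above all Exo libraries, with a log2FC of 0.37 (standard error 0.11, Q = 0.188) that stayed past p with each library left out. Its relatives Sv2a and Sv2b had log2FC of -0.04 and -0.07 in that comparison. Against Con the log2FC of Sv2c was 0.31 (Q = 0.595), and 0.20 without Con replicate 1, no longer past the unadjusted p.

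Sypl2, a synaptophysin-like protein best known from muscle, was the lowest member by mean level. It had 2.67, 2.05 and 2.98 CPM in Con, 2.40, 2.00 and 2.40 CPM in Exo and 1.59, 1.59 and 1.86 CPM in pLV-Exo-Wnt5a, from 58 to 103 counts per library. The pLV-Exo-Wnt5a libraries were below the other 6. The log2FC against Con was -0.62 (standard error 0.26, Q = 0.585) and passed the unadjusted p in 2 of 6 fits with a library left out. Syn2 and Syn3, other synapsins, were higher in all Exo libraries than in all Con libraries by log2FC of 0.05 (Q = 0.733) and 0.21 (Q = 0.365), neither past the unadjusted p, and 0.07 and 0.11 without Con replicate 1.

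The 2 endocytosis genes were level. Dnm1 encodes dynamin, which pinches off vesicles, and had 234, 224 and 215 CPM in Con, 201, 230 and 262 CPM in Exo and 240, 274 and 198 CPM in pLV-Exo-Wnt5a. Amph encodes amphiphysin, which recruits dynamin, and had 239, 236 and 244 CPM in Con, 215, 229 and 244 CPM in Exo and 221, 231 and 227 CPM in pLV-Exo-Wnt5a. The Con range of Amph lay above that of pLV-Exo-Wnt5a by a small margin, with a log2FC of -0.09 (Q = 0.758).

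Many members had their extremes in 2 libraries of the same group. Of the 36 genes, 14 had their highest level in pLV-Exo-Wnt5a replicate 2, against 11.5% of all genes, and 11 had their lowest level in pLV-Exo-Wnt5a replicate 3, against 9.22% of all genes. Their summed level was 5237, 5250 and 5250 CPM in Con, 5142, 5644 and 5830 CPM in Exo and 5568, 5959 and 5010 CPM in pLV-Exo-Wnt5a. The ranges of Exo and pLV-Exo-Wnt5a thus enclosed the 3 Con values. The largest contributors to this sum, such as Syt11, Vamp2 and Syp, were not among the members past p for Exo against Con.

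**Figure D3:**
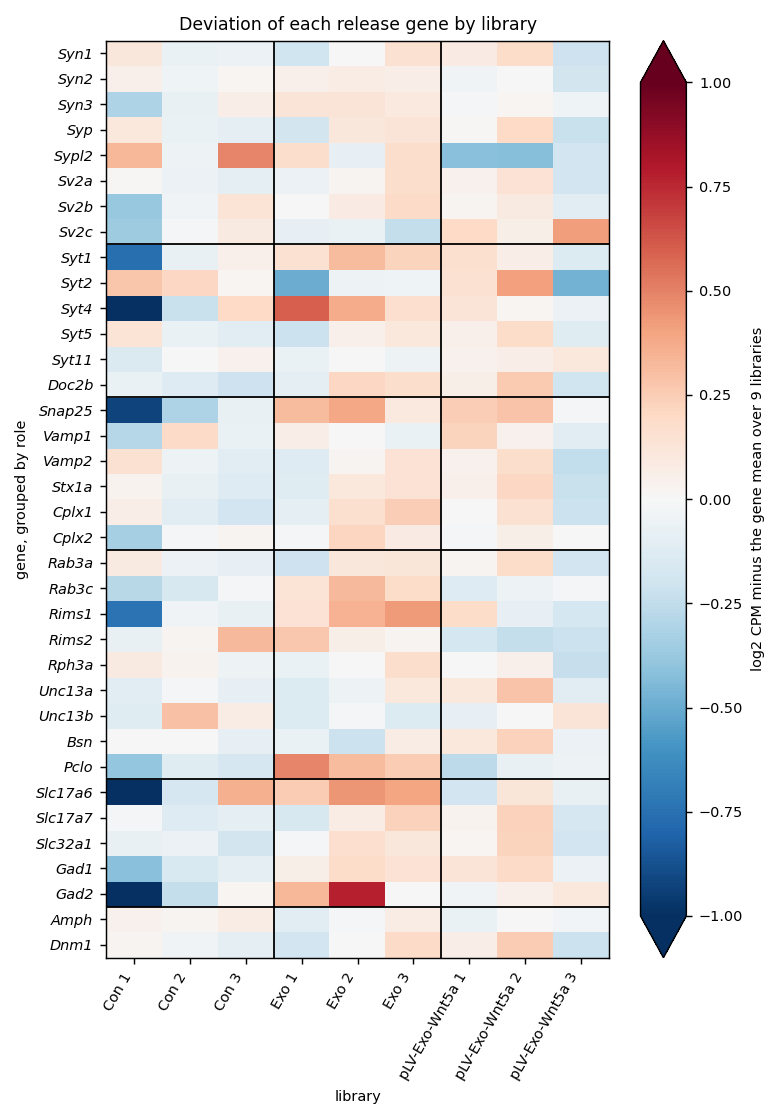
log2 CPM minus the mean of the gene over the 9 libraries (colour, cut at 1 in either direction) for the 36 genes (rows, grouped by role and parted by lines) in each library (columns, groups parted by lines). Con replicate 1 is blue in Syt1, Syt4, Snap25, Rims1, Slc17a6 and Gad2, and many rows are red in pLV-Exo-Wnt5a replicate 2 and blue in replicate 3.

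The markers of neurons included genes that were higher in Exo and genes that were level. The summed level of 10 neuron markers was 3206 to 3217 CPM in Con, 3192 to 3781 CPM in Exo and 3036 to 3855 CPM in pLV-Exo-Wnt5a, and its lowest and highest libraries were pLV-Exo-Wnt5a replicates 3 and 2, as for the sum of the 36 members. For Exo against Con, 6 of the 10 neuron markers were higher at the unadjusted p (Dcx, Elavl4, Gap43, Map2, Nefl and Stmn2) and none was lower, against 8.92% and 6.01% of all genes. The other 4 did not pass it, with log2FC of 0.01 for Rbfox3 (NeuN), -0.02 for Tubb3, 0.27 for Elavl3 (0.10 without Con replicate 1) and 0.18 for Nefm, and Tubb3, at 1521 to 2054 CPM, contributed most of the sum. Compared with Exo, pLV-Exo-Wnt5a had 2 lower and none higher (6.91% and 5.07% of all genes), Dcx (log2FC -0.60, Q = 0.0113 in edgeR) and Map2 (log2FC -0.48, Q = 0.0759). Dcx marks immature migrating neurons and Map2 dendrites. Con replicate 1 was also the lowest library for both, at 50.5 CPM for Dcx and 92.5 CPM for Map2. Leaving it out changed the log2FC for Exo against Con from 0.56 to 0.34 for Dcx and from 0.45 to 0.22 for Map2, which was then no longer past the unadjusted p. The other 5 of the 6 stayed past it without that library, Elavl4 with 0.34 in place of 0.59. Their part in the result was not tested. In bulk RNA, fewer neurons and less of a transcript per neuron cannot be told apart.

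Among glial and progenitor markers, the summed level of 8 astrocyte markers was 4987 to 6025 CPM in Con, 4877 to 5005 CPM in Exo and 6576 to 6908 CPM in pLV-Exo-Wnt5a. Gfap, an intermediate filament protein, made up most of that difference, and without it the other 7 markers summed to 2726 to 2971, 2673 to 2783 and 2496 to 2880 CPM. That of 8 neural stem cell markers was 3203 to 3391, 2718 to 3217 and 3103 to 4047 CPM in the 3 groups, and without Vim, another filament protein, 1416 to 1631, 1415 to 1731 and 1406 to 1689 CPM. That of 8 oligodendrocyte lineage markers was 2158 to 2380, 1995 to 2200 and 1934 to 2149 CPM. That of 8 microglia markers was 12.2 to 14.1, 4.60 to 6.19 and 10.5 to 14.0 CPM, with the defining genes Tmem119 and P2ry12 at or below 0.363 CPM in every library. That of 6 mesenchymal markers was 23.4 to 31.4, 20.6 to 23.7 and 21.9 to 22.3 CPM. The part of these cells in the results was not tested.

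The dependence on single libraries was examined for the 8 members higher in Exo than in Con. All 8 kept a positive log2FC with any of the 6 libraries left out. Pclo, Snap25, Rims1 and Gad1 stayed past the unadjusted p in 6 of 6 such fits, Gad2 in 5, and Syt1, Syt4 and Rab3c in 4. Without Con replicate 1, the log2FC of all 8 was smaller, none of the 36 members reached the log2FC limit, and 12 passed the unadjusted p (11 higher, 1 lower), where 2.29% and 12.1% of all genes did. Without Con replicate 3, 7 members passed p with the log2FC limit, against 9.24% of all genes, and Syt4 was a DEG at Q under 0.05 (log2FC 1.00, Q = 0.0417). Without Exo replicate 2, 4 members passed the unadjusted p, against 8.64% of all genes. The size also moved with Exo libraries, since the log2FC of Gad2 was 0.51 without Exo replicate 2 and 0.92 without Exo replicate 3, and that of Rab3c was lowest, at 0.29, without Exo replicate 2. Syt1 and Syt4 lost the unadjusted p in fits without an Exo library, Gad2 without Exo replicate 2, and Rab3c without Exo replicate 2 or Con replicate 2.

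**Figure D4:**
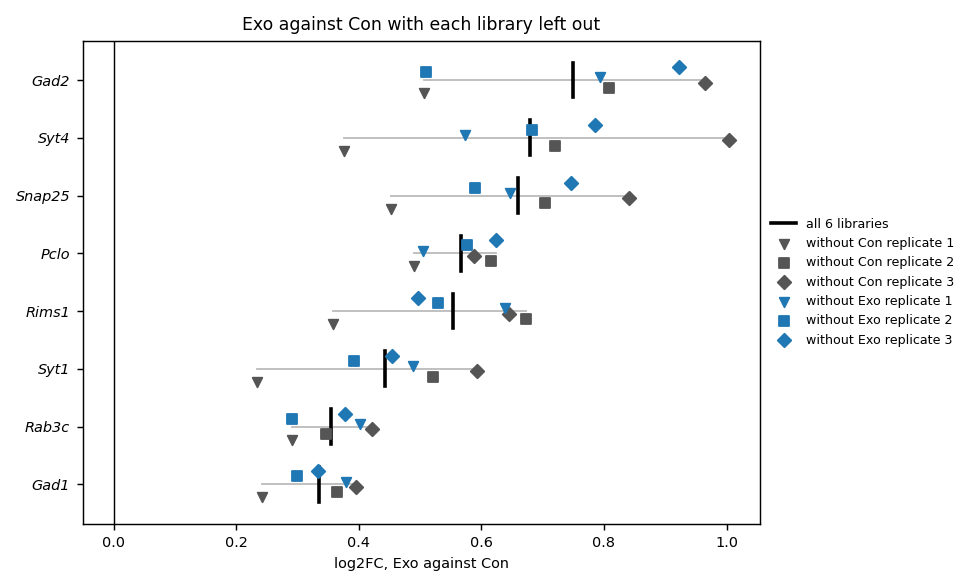
log2FC for Exo against Con (x axis) of the 8 members past an unadjusted p under 0.05 (y axis), with all 6 libraries (black bar) and with each library left out (grey, a Con library; blue, an Exo library). All points lie to the right of 0, and those without Con replicate 1 lie lowest or near it, from 0.23 (Syt1) to 0.51 (Gad2).

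The span of the 36 members in the RefSeq annotation of the rat genome ran from 4.11 to 545 kb. The 8 members past the unadjusted p for Exo against Con had a median span of 153 kb and the other 28 one of 44.0 kb. The 6 members lower in pLV-Exo-Wnt5a than in Exo had a median of 429 kb and the other 30 one of 44.4 kb. Its logarithm had a Pearson correlation of 0.145 (Spearman 0.09) with the log2FC for Exo against Con and of -0.17 (Spearman -0.233) with that for pLV-Exo-Wnt5a against Exo, across the 36 genes, which share the same libraries. With the ratio of Con replicate 1 to the other Con libraries, the values were -0.302 and -0.463. The part of gene length in the results was not tested.

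Genes of the same pathway outside the 36 were examined with a list of 52 other vesicle and release genes, of which 51 were in the table and 44 passed the filter. For Exo against Con, 3 were higher at the unadjusted p and none was lower, against 8.92% and 6.01% of all genes. Snap91, a clathrin adaptor of the synapse, was at 181, 234 and 233 CPM in Con, 265, 290 and 287 CPM in Exo and 278, 300 and 241 CPM in pLV-Exo-Wnt5a, above Con in every exosome library. Its log2FC was 0.37 against Con in Exo (Q = 0.265). Synpr, a vesicle membrane protein related to synaptophysin, was at 7.68, 14.8 and 18.7 CPM in Con and 28.6, 18.0 and 20.0 CPM in Exo, with a log2FC of 0.68 (Q = 0.304) and overlap. Without Con replicate 1 that of Snap91 was 0.26 and that of Synpr 0.39, the latter no longer past the unadjusted p.

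For pLV-Exo-Wnt5a against Exo, 6 of the 44 were lower and 1 was higher, against 6.91% and 5.07% of all genes. The lower ones were Stxbp5, Rab3b, Erc2, Synj1, Dnm3 and Slc18a2. Slc18a2, the monoamine transporter of vesicles, was near the floor, at 1.03, 1.19 and 0.303 CPM in Exo and between 0.227 and 0.301 CPM in pLV-Exo-Wnt5a, so the Exo group was itself uneven, and its log2FC was -1.69 (Q = 0.246). Against Con, at 0.231 to 0.311 CPM, the log2FC of Exo was 1.56 (Q = 0.277). Slc18a3, the acetylcholine transporter of vesicles, was higher in pLV-Exo-Wnt5a, at 0.681, 0.273 and 1.07 CPM against 0.124 to 0.233 CPM in Exo (Q = 0.199). Against Con, pLV-Exo-Wnt5a had 2 of the 44 higher, Sh3gl2 and Snap91, and none lower, against 4.2% and 4.15% of all genes. The median log2FC of the 44 was 0.07, 0.01 and 0.05 in the 3 comparisons, beside 0.07, -0.04 and 0.08 for the 36 members.

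The count table annotates the KEGG synaptic vesicle cycle, which holds 61 genes besides 14 of the members and contains many proton pump subunits and transmitter reuptake transporters. Of its 47 genes tested for Exo against Con, 3 were higher and 2 lower at the unadjusted p, against 8.92% and 6.01% of all genes. Of 48 tested in the other 2 comparisons, 2 were higher and 9 lower in pLV-Exo-Wnt5a than in Exo (5.07% and 6.91% of all genes), and none was higher and 5 were lower than in Con (4.2% and 4.15%). Slc6a11, a GABA reuptake transporter mainly of astrocytes, was lower in pLV-Exo-Wnt5a than in Exo by a log2FC of -0.50 (Q = 0.00363 in edgeR), and was named after its values were seen.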

How the data were processed

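RNA-seq of NSCs was analysed from 9 libraries, 3 in each of the Con, pLV-Exo-Wnt5a and Exo groups. Raw integer read counts of genes were deposited by the authors. The paper names HISAT2 for alignment, and the submitters' processing notes name Bowtie2, RSEM 1.3.1 and DESeq2 1.4.5. The genome build and the handling of reads shared by paralogs are not given in the sources used here, so counts of close family members are uncertain to that extent.

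The 36 genes, the role groups and the marker lists were chosen with earlier results of these data known. In R 4.3.3, edgeR 4.0.16 was run on the 6 libraries of each comparison for all genes, with filterByExpr, TMM normalization and its quasi-likelihood test, and p-values were adjusted over all genes (Q). The call rules were Q under 0.05 together with a fold of more than 2 or less than 0.5, and an unadjusted p under 0.05 with an absolute log2FC above 0.58. The standard error was taken from the test statistic. CPM values were normalized by TMM over all 9 libraries. No transcript lengths were used, so levels are not compared between genes other than as counts. The fits were tested on simulated data.

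Values per library are given for members past either call rule in any comparison and for the 2 members with the highest mean CPM of each role group. Of the other vesicle genes, up to 3 per direction past the second rule are named. Further genes past an unadjusted p, and the relatives set beside them, were named after their values were seen. Alternatives were RLE normalization, DESeq2 1.42.0, all 9 libraries in 1 fit, other filters, thresholds without a fold limit, the replicate number as a block, and leaving out each library. Pathway membership was copied from the table. No results of other assays of the study were used.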

Additional observations from a re-analysis of the deposited data

How the results depend on the processing

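No member was called at Q under 0.05 with the fold limit in any comparison under RLE normalization, DESeq2, a fit on all 9 libraries, either other filter or no fold limit, and leaving out 1 library gave between 0 and 1 for Exo against Con (1 without Con replicate 3). The count at an unadjusted p with the log2FC limit was 3 for Exo against Con and between 0 (without Con replicate 1) and 7 (without Con replicate 3) with a library left out, where 4.47%, 2.29% and 9.24% of all genes passed. It was 1 for pLV-Exo-Wnt5a against Con and between 0 and 3 with a library left out. Without the log2FC limit the counts were 8, 7 and 4, in the order of the report. Between the exosome groups, leaving out 1 library gave between 4 and 7. It gave 4 without Exo replicate 2 or pLV-Exo-Wnt5a replicate 2, where 8.67% and 9.39% of all genes passed. For pLV-Exo-Wnt5a against Con it gave between 1 (without pLV-Exo-Wnt5a replicate 1) and 6 (without Con replicate 3), where 4.07% and 14.4% of all genes passed. The cause was not tested beyond the construction of these settings. The median log2FC of the members ranged from 0.0499 to 0.143 for Exo against Con with a library left out, and for pLV-Exo-Wnt5a against Exo it ranged from -0.116 to 0.0359 and turned from -0.04 to 0.04 without pLV-Exo-Wnt5a replicate 3. For pLV-Exo-Wnt5a against Con it was 0.08, and 0.0328 without pLV-Exo-Wnt5a replicate 2 and 0.138 without replicate 3. In the fit on all 9 libraries, 4 members in place of 7 passed the unadjusted p between the exosome groups (1 higher, 3 lower), against 7.41% of all genes in place of 12%. Syt1, Syt4 and Rims1 were lost there with log2FC of -0.19, -0.36 and -0.32, beside -0.18, -0.34 and -0.31. Without a filter on low counts, edgeR gave Q under 0.05 at any fold for 5 members for Exo against Con (Pclo, Snap25, Syt1, Syt4 and Rims1), 2 between the exosome groups (Pclo and Syt4) and 1 for pLV-Exo-Wnt5a against Con (Snap25), where 1.93%, 1.71% and 0.372% of all genes had it. In DESeq2, 2 members in place of 3 passed the unadjusted p with the log2FC limit for Exo against Con (4.13% of all genes), since Syt4 did not, at a log2FC of 0.68 as in edgeR.

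Groups share replicate numbers, but libraries with the same number did not deviate together. The correlation of their deviations from the group means lay between -0.201 and 0.0634 over 9 pairs, and 3 of 18 matched best with their own number, so the numbers were not taken as pairs. With the replicate block, 0, 0 and 0 members passed Q with the fold limit, 3, 0 and 1 passed p with the log2FC limit (3.88%, 3.18% and 2.17% of all genes; the 1 was Snap25, and Sypl2 was lost at a log2FC of -0.61), and the median log2FC was 0.07, -0.04 and 0.09. Rab3c for Exo against Con also lost its unadjusted p there. For pLV-Exo-Wnt5a against Con, 6 members passed the unadjusted p with the block, all higher and Syt1 and Syt4 among them, in place of 4. Of all genes, 9.23% did (5.43% higher, 3.79% lower), in place of 8.35%.

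Totals of at least 32765138 counts leave the smallest members, such as Slc17a6 and Sypl2, with 47 to 147 and 58 to 103 counts per library.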
